A study of Mus musculus with 28 samples.

Results

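m6A peaks of newborn (P0) mouse cerebrum were set against those of newborn cerebellum. Peaks of 4 cerebrum and 2 cerebellum immunoprecipitation (IP) libraries that overlapped by at least 1 nt on the same strand were joined into regions, and each region was scored as present or absent in each library. Of 30834 regions, 3873 had a peak in all 4 cerebrum libraries and in neither cerebellum library, and 674 had a peak in both cerebellum libraries and in no cerebrum library. These 4547 regions, called cerebrum-only and cerebellum-only here, are described below, with the 11976 regions present in all 6 libraries for comparison.

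The study profiled early postnatal brain of F1 hybrids between the inbred mouse strains C57BL/6J and PWK/PhJ. F1i marks pups of PWK mothers sired by C57 males, and F1r those of C57 mothers sired by PWK males. At P0 the cerebrum groups were 1 library each of F1i males, F1r males, F1i females and F1r females, and the cerebellum groups were 1 library of F1i males and 1 of F1r males, with no agent given in any group. The series held 14 IP libraries and 28 samples in all, and the 14 lists together gave 33937 regions. The labels do not say how many animals a library holds, so every spread is that between these samples and may be technical. All cerebellum libraries were in a batch of their own in the study's sample sheet and all cerebrum libraries in another, at both ages, so in every comparison below a tissue difference and a batch difference cannot be told apart. The cerebellum group also had no female.

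N6-methyladenosine is laid down on nascent RNA by a methyltransferase complex built around METTL3 and METTL14, mostly in a short sequence context known as DRACH, of which GGAC is the commonest core. It is densest near stop codons, in 3′ untranslated regions (3′UTRs) and in long internal exons, and reader proteins of the YTH family tie it to RNA decay, translation and nuclear processing. In the developing brain it has been linked to the timing of neurogenesis and to the growth of the cerebellum. A peak needs both a transcript and its methylation, and the input RNA was not analysed here, so presence of a peak cannot separate the level of the RNA from its methylation. In whole tissue, fewer cells of a type and less RNA per cell cannot be told apart either.

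The stretches around the GGAC nearest to the strongest summit are shown first for regions to which the values below return. They were read from the mouse genome (mm10, GRCm38.p6) on the strand of the peak, 5′ to 3′, with 12 nt on either side and GGAC in capitals. The first set comes from cerebrum-only regions with a single copy in the genome: Tbr1 at chr2:61812363-61812390 on the plus strand, Epha3 at chr16:63773397-63773424 on the minus strand, the non-coding RNA 9130024F11Rik at chr1:56973042-56973069 on the plus strand and Sp8 at chr12:118849999-118850026 on the plus strand.
Tbr1: gctggcccagcgGGACtgcgagaagaac
Epha3: gttcacactgcgGGACtgtaacagcatt
9130024F11Rik: acaaacttttgcGGACtcccgcggccct
Sp8: cttttaggatgtGGACagtaagtagcac

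The second set comes from cerebellum-only regions in patterning genes: En1 at chr1:120607338-120607365 on the plus strand, Foxa2 at chr2:148043676-148043703 on the minus strand, Tfap2a at chr13:40716692-40716719 on the minus strand and Irx3 at chr8:91800204-91800231 on the minus strand.
En1: aatcctccgagtGGACattcacatagga
Foxa2: gccccacaaaatGGACctcaaggcctac
Tfap2a: atgagcttcatgGGACtaactcatcgcc
Irx3: gacttcggcctgGGACccatttcggact

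The third set comes from introns of cerebrum-only regions and shows how alike the sequence under distant peaks could be: Nlgn1 at chr3:25852120-25852147 on the minus strand, Grm5 at chr7:87644766-87644793 on the plus strand, Gabrg3 at chr7:57264807-57264834 on the minus strand and Gabra2 at chr5:71075191-71075218 on the minus strand.
Nlgn1: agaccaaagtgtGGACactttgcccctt
Grm5: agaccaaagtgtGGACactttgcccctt
Gabrg3: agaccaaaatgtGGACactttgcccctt
Gabra2: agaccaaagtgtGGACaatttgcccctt

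The letters GGAC were searched within 25 nt of the strongest summit, on the peak's strand, and were found in 44.2% of all 30834 regions against 16.2% of windows of the same length 300 nt away. Cerebrum-only regions held it in 37.5%, cerebellum-only regions in 47.8% and regions of all 6 libraries in 51.6%. Absence of these letters says only that they are not in this window.

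The cerebellum lists held 16687 peaks in F1i males and 18022 in F1r males. The cerebrum lists held 23975 in F1i males, 23684 in F1r males, 26208 in F1i females and 23396 in F1r females. Every cerebrum list was longer than both cerebellum lists, by 6961 peaks on average (24316 ± 1283, SD, n = 4, against 17354.5 ± 944, n = 2; exact permutation test, two-sided, p = 0.0667). This is the smallest p that 4 libraries against 2 can give, so no P0 comparison here can pass 0.05. The lists give no read totals, and absolute depth is unknown. Relative depth, recovered from the background of each list, was 0.786 and 0.876 in cerebellum and 0.923, 0.866, 1.37 and 1.18 in cerebrum in the same order, so the tissues overlapped (difference 0.253, exact permutation p = 0.2).

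Peaks also lay in different parts of genes. Introns held 3.52% and 3.74% of cerebellum summits and between 9.83% and 13.2% of cerebrum summits, a difference of 8.25 percentage points. The 3′UTR and the 200 nt on either side of the stop codon held 50.4% and 48.5% of cerebellum summits and 41.1% to 44.4% of cerebrum summits, a difference of -6.92 points. Coding sequence differed by -3.93 points and the 5′UTR by -0.50. For each of these parts the 4 cerebrum libraries did not overlap the 2 cerebellum libraries (exact permutation p = 0.0667 for each, the smallest possible). Much of this went with list length. With the lists trimmed to equal length the differences were 3.93 points for introns and -2.42 for the 3′UTR and stop codon (exact permutation p = 0.133). They were -0.29 for coding sequence (exact permutation p = 0.733) and -0.30 for the 5′UTR. Non-coding exons differed by 0.53 points and ground outside genes by 2.57, also without overlap, but both differences changed sign in the trimmed lists, to -0.25 and -0.67.

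GGAC stood within 25 nt of 52.3% and 51.1% of cerebellum summits and of 42.6% to 44.2% of cerebrum summits, a difference of -8.24 points (exact permutation p = 0.0667). The same search 300 nt away gave 16.3% to 17.1% in the 6 libraries. When any DRACH motif was counted in place of GGAC the difference was 0.42 points, of the opposite sign (exact permutation p = 0.133). DRACH was not searched in the windows 300 nt away, so its background share is not known here. Libraries of one tissue shared more regions than libraries of different tissues. The Jaccard index is the number of shared regions over the number in either library. It was 0.746 to 0.773 for the 6 pairs within cerebrum, 0.767 for the cerebellum pair and 0.522 to 0.587 for the 8 pairs between tissues. Within minus between was 0.207 (one-sided exact permutation p = 0.0667).

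Presence across the 6 lists was graded rather than split into 2 blocks. Of the 30834 regions, 12.6% were cerebrum-only and 2.19% cerebellum-only. Just outside the rule lay 2060 regions in 3 cerebrum libraries and no cerebellum library, 1797 in 4 cerebrum libraries and 1 cerebellum library, 1221 in 1 cerebellum library alone and 247 in both cerebellum libraries and 1 cerebrum library. Strength was measured as the within-list percentile of the −log10 q of a peak, averaged over the libraries of the tissue. Its median was 36.2 in cerebrum-only regions, 20.1 in the 3-library regions and 39.0 in those with 1 cerebellum library. For cerebellum-only regions it was 28.6, against 12.5 in regions of 1 cerebellum library and 24.1 in those with 1 cerebrum library.

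**Figure D1:**
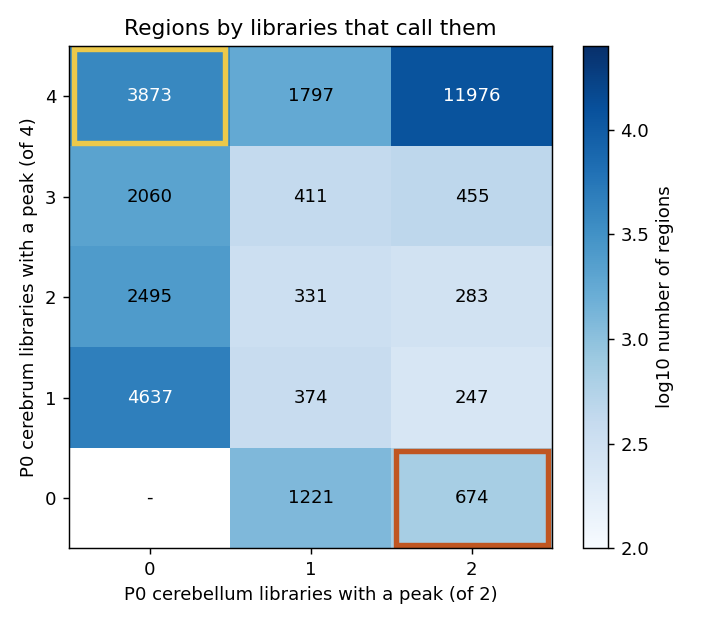
Number of P0 regions by how many of the 4 cerebrum libraries (vertical) and of the 2 cerebellum libraries (horizontal) had a peak there, with colour on a log10 scale. The framed cells are the 3873 cerebrum-only and the 674 cerebellum-only regions, and the largest cell is the 11976 regions of all 6 libraries.

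The imbalance between the 2 tissues moved with the length of the lists. With every list trimmed to as many of its strongest peaks as the shortest list held, 1579 regions were cerebrum-only and 1346 cerebellum-only. With only the males used, 2 libraries against 2, they were 5213 and 936. Without the cerebellum F1i library the cerebellum-only regions were 1438, and without the cerebellum F1r library 1185, since a single library then fixed that side. The number of regions in one tissue was therefore not read as a count of methylated sites.

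By gene, 10888 genes had a summit in at least 1 library. Of these, 750 genes (6.89%) had summits in all cerebrum libraries and none in cerebellum, 219 (2.01%) the reverse, and 7157 had summits in all 6. With the lists at equal length the 2 counts were 353 and 501. A peak did not have to be lost with its gene. Of the 3335 cerebrum-only regions inside genes, 2218 (66.5%) lay in a gene with peaks elsewhere in both cerebellum libraries and 883 (26.5%) in a gene without any. Of the 581 cerebellum-only regions inside genes, 287 (49.4%) lay in a gene with peaks elsewhere in all 4 cerebrum libraries and 236 (40.6%) in a gene without any.

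Tissue-exclusive regions were narrower, with weaker peaks, than shared ones, an order that the rule itself favours. Width is that of the joined region, and joining more lists widens it. A strong peak is also less likely to miss a call in the other tissue. Median width was 217 nt in cerebrum-only regions, 142.5 nt in cerebellum-only regions and 448 nt in regions of all 6 libraries. The median fold enrichment, which the authors' peak caller gives as IP pileup over local background at the summit, was 8.10, 5.76 and 16.9 in the same order. Only 56 cerebrum-only and 30 cerebellum-only regions were above the 80th percentile of their lists on average. The nearest peak of the other tissue on the same strand was far in most cases, with a median of 13409 nt from cerebrum-only and 10701 nt from cerebellum-only regions, and 6.87% and 10.5% had one within 200 nt.

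Among the stronger cerebrum-only regions were those in transcription factors of the embryonic forebrain. Fold enrichments are given in the order F1i males, F1r males, F1i females and F1r females. Tbr1, a T-box factor of deep-layer cortical neurons, had a region at its stop codon and 3′UTR (chr2:61811646-61812463, plus strand) with folds of 51.0, 42.0, 41.4 and 52.5.

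Factors of the ventral forebrain showed the same presence. Dlx1, a homeobox gene of GABAergic progenitors, had a 5′UTR region (chr2:71529610-71530085, plus strand) with folds of 32.4, 42.9, 34.7 and 44.9, although another part of the gene had a peak in 1 cerebellum library. Dlx1as, transcribed from the opposite strand, had an intronic region (chr2:71531655-71532722, minus strand) with 86.7, 57.9, 85.6 and 81.8. The regions of Dlx1 and Dlx1as lie on opposite strands of the same locus, and the Dlx1as region was no longer exclusive when strand was ignored. Dlx6 gave 11.2, 12.8, 20.9 and 16.7 and Dlx5 gave 6.51, 9.51, 11.6 and 9.83, both at the 3′ end of the gene. Of these 4 genes, Dlx5 had the lowest folds.

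Emx1, a homeobox gene of cortical progenitors, had folds of 20.6, 22.3, 20.5 and 21.9 (chr6:85203961-85204316, plus strand). Sp8, a zinc-finger factor of cortical patterning and of olfactory-bulb interneurons, had 28.8, 29.8, 35.2 and 27.1. Males and females overlapped in both genes.

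In the list of 30 telencephalon transcription factors, 8 genes were cerebrum-only, among them Emx1, Tbr1, Dlx5, Dlx6, Mef2c and Sp8, 15 had peaks in all 6 libraries and none was cerebellum-only, against the 6.89% and 2.01% of all genes. Their peaks added up to between 76 and 88 in each cerebrum library and to 39 and 40 in the cerebellum libraries. The list was drawn up with earlier results of these data known, so its count describes the samples and supports no direction. When a library had to cover at least 50% of a region, 14 of the 30 were cerebrum-only. Cerebrum-only genes as a whole then rose too, from 750 to 1097.

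**Figure D2:**
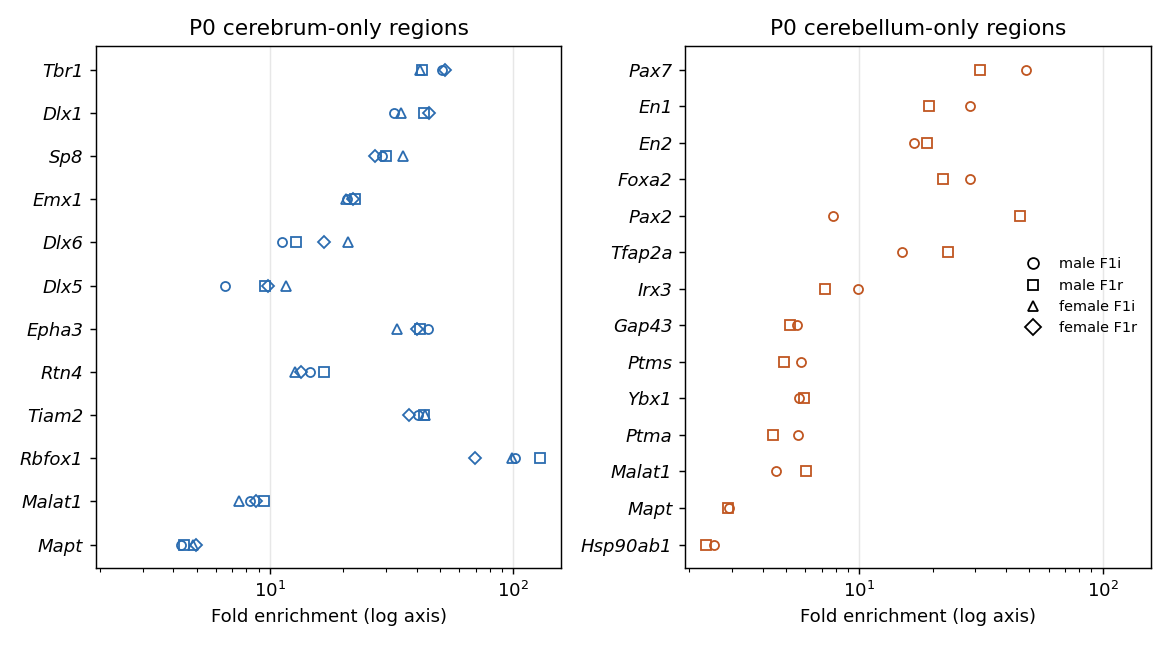
Fold enrichment at the summit (log axis) in each P0 library for regions of named genes, cerebrum-only on the left with 4 libraries and cerebellum-only on the right with 2. Symbols mark sex and cross. Tbr1 sits between 41.4 and 52.5 in all 4 cerebrum libraries, while Pax2 spans 7.78 to 45.7 in the 2 cerebellum libraries.

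Genes of wiring and of neuronal structure followed. Epha3, an ephrin receptor that guides axons, had a region at its stop codon and 3′UTR (chr16:63772989-63773565, minus strand) with folds of 44.5, 41.3, 33.2 and 40.1. Tiam2, an activator of the small GTPase Rac, had 40.7, 42.9, 43.3 and 37.2 in its coding sequence. Rtn4, which encodes the neurite-growth inhibitor Nogo, had 14.6, 16.6, 12.6 and 13.3 in its coding sequence (chr11:29707929-29708397), with peaks in both cerebellum libraries elsewhere in the gene. In each of these genes F1i and F1r libraries overlapped.

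Of 55 axon guidance genes, 4 were cerebrum-only (Sema3d, Epha3, Efna5 and Slit3), 1 was cerebellum-only (Epha10) and 42 had peaks in all 6 libraries, shares near the 6.89% and 2.01% of all genes. There were 31 cerebrum-only regions in 22 of the genes and 2 cerebellum-only regions in 2, where all features gave 3873 and 674. Of 38 glutamate and GABA receptor genes, 31 had peaks in all 6 libraries and only Gabra2 was cerebrum-only, while 21 held a cerebrum-only region and 2 a cerebellum-only region, against 2339 and 533 of all 10888 genes. Their summed peaks were 136 to 180 in cerebrum and 83 to 94 in cerebellum, where whole lists averaged 24316 and 17354.5 peaks. Examples were Grik2, a kainate receptor subunit, with 5′UTR folds of 12.5, 16.6, 10.7 and 10.6, and Grin2b, an NMDA receptor subunit, with coding folds of 9.84, 10.8, 11.7 and 11.6.

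RNA-binding proteins of neurons had the highest ratio of summed peaks, cerebrum over cerebellum, among the lists. The 26 genes gave 60 to 86 peaks in each cerebrum library and 24 and 25 in the cerebellum libraries, and Rbfox1 alone gave 17 to 24 of the former and 0 and 1 of the latter. Celf1 and Celf3, splicing regulators, were cerebrum-only, a share near the 6.89% of all genes, 13 genes had peaks in all 6 libraries, and 25 cerebrum-only regions fell in 8 of the genes. Rbfox1, a splicing factor of mature neurons, held 13 of them, 12 in introns. Its strongest (chr16:6257124-6259337, plus strand) had folds of 102, 129, 99.1 and 69.8, the lowest in F1r females, and the 25 nt at its summit had 20 copies in the genome.

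In the signalling lists the shares of exclusive genes were near those of all genes, 6.89% and 2.01%. In the Sonic hedgehog list of 22 genes only Ccnd2, which encodes cyclin D2, was cerebrum-only, with folds of 9.62, 9.06, 9.33 and 10.7, and 15 had peaks in all 6 libraries. In the Wnt list of 44 genes Dvl1, a cytoplasmic relay of the receptor, and Rspo3, a secreted enhancer of the pathway, were cerebrum-only and 30 had peaks in all 6. Neither list held a cerebellum-only gene.

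Non-coding exons held 7.02% of cerebrum-only and 8.01% of cerebellum-only regions, near the 6.35% of all regions. 9130024F11Rik, a long non-coding transcript, had folds of 102, 81.7, 91.1 and 77.6 (chr1:56972540-56973490, plus strand). Malat1, an abundant nuclear non-coding RNA, had one cerebrum-only region (chr19:5798789-5799268, minus strand) with folds of 8.31, 9.47, 7.44 and 8.77, within a transcript that carried peaks in all 6 libraries. By annotation, 3067 of the 3335 cerebrum-only regions in genes were in protein-coding genes, 71 in long intergenic RNAs and 52 in antisense genes. Of the 581 in cerebellum, 527, 19 and 18 were.

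Of the cerebrum-only regions, 6 fell in small nuclear RNA genes. So did 29 of the 14311 regions that were neither exclusive nor in all 6 libraries. Such regions were not seen in the cerebellum-only set or among the regions of all 6 libraries. How many of the 29 had a peak in a cerebellum library was not counted here. Gm23849 and Gm24497, annotated copies with the same 28 nt around their GGAC, had low folds of 2.78, 1.84, 2.81 and 2.13 and of 2.27, 1.93, 2.84 and 2.97. Their 25 nt at the summit occurred 9 times in the genome, and how uniquely the reads map there was not tested. Gm25405 had 175, 29.9, 14.96 and 30.6 and its 25 nt occurred 129 times. The cerebrum-only region with the highest mean percentile lay outside genes (chr7:104379945-104380059, plus strand), with folds of 8.74, 10.5, 15.3 and 14.7.

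Rbm15, a subunit that recruits the m6A methyltransferase to RNA, carried a cerebrum-only region at its 3′ end (chr3:107325756-107326292, minus strand) with folds of 23.2, 37.9, 32.6 and 33.7. A second lay just beyond the annotated end of the gene (chr3:107324865-107325593, minus strand) with 69.5, 79.1, 66.1 and 60.4. The gene itself had peaks in all 6 libraries. Of 21 genes of the m6A machinery, 12 had peaks in all 6 libraries, 7 had none and none was tissue-exclusive, and summed peaks were 32 to 37 in cerebrum and 35 in both cerebellum libraries. Ythdc1, the nuclear reader, held a cerebellum-only coding region with folds of 4.96 and 4.70.

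Introns held 1002 cerebrum-only regions (25.9%), against 51 cerebellum-only regions (7.57%) and 2.54% of the regions of all 6 libraries. The 14311 other regions, neither exclusive nor in all 6 libraries, had 23.6% in introns. Of these, 4637, 2495 and 2060 had peaks in 1, 2 and 3 cerebrum libraries and in no cerebellum library. A high intronic share was therefore not limited to regions that met the rule, but it was not separated from presence in cerebrum. The cerebrum-only intronic regions lay in 610 genes and in long ones. Their median gene length was 221 kb, against 31.2 kb in cerebellum-only and 49.6 kb in shared intronic regions, and 67.4% were in genes of 100 kb or more. Intronic regions among the 14311 others had a median gene length of 148 kb, with 59.0% in such genes. Of the cerebrum-only intronic regions, 75.8% lay in a gene with peaks elsewhere in both cerebellum libraries. Among 2339 genes with a cerebrum-only region, 1801 had 1 and 56 had 5 or more.

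Ptprd, a receptor phosphatase that organises synapses, held the most with 21, of which 19 were intronic in a gene of 2271 kb. Fgf14, which binds sodium channels, held 20, all intronic. Nkain2, a partner of the sodium pump, held 15, Rbfox1 13 and both Nbea, a neuronal trafficking protein, and Nrg1, a ligand of ErbB receptors, 12. The strongest region of Fgf14 had folds of 32.2, 34.2, 41.3 and 26.4 and that of Nbea 24.7, 24.6, 30.6 and 19.2, with F1r females lowest in both. Ahnak, Dst and Macf1, which encode giant scaffold and cytoskeletal linker proteins, held 9 each, all in coding sequence. No gene held 5 or more cerebellum-only regions.

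**Figure D3:**
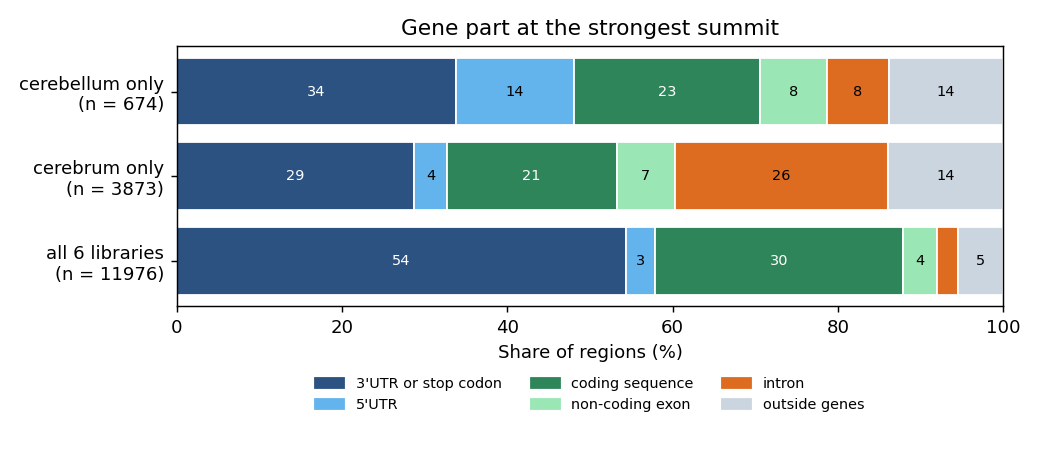
Share of regions (%) by the gene part at the strongest summit, for cerebellum-only, cerebrum-only and all-6 regions. Introns take 25.9% of cerebrum-only regions, and the 5′UTR takes 14.2% of cerebellum-only regions, against 2.54% and 3.42% of shared regions.

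Many of the intronic summits lay in sequence with several copies. The 25 nt centred on the summit occurred more than once in the genome in 405 of the 1002 cerebrum-only intronic regions (40.4%), against 34.4% of all intronic regions and 20.7% of those in all 6 libraries. An 18-nt stretch of the Nlgn1 and Grm5 sequences printed above, GTGTGGACACTTTGCCCC, occurred 12367 times in the genome. It lay in 155 regions, 60 of them cerebrum-only and spread over 52 genes, none cerebellum-only and 1 in all 6 libraries. This stretch was picked after the sequences were seen and is a description.

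The aligner reported a single location per read, and how uniquely the longer reads map at these summits was not tested. Nlgn1, an adhesion protein of excitatory synapses, had folds of 67.8, 54.8, 62.7 and 44.2 in an intron whose 25 nt at the summit had 10428 copies. Gabra2, a GABA receptor subunit, had 18.2, 20.3, 16.7 and 13.2, with 125 copies. With regions of several copies left out, a choice made after seeing the data, 3087 cerebrum-only and 615 cerebellum-only regions were left, and the difference in intronic share was 5.59 percentage points.

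Cerebellum-only regions were led by another mix of genes. Folds are given for F1i males and then F1r males. Pax7, a paired-box factor of dorsal midbrain and hindbrain, had a 3′UTR region (chr4:139738520-139739390, minus strand) with folds of 48.5 and 31.2, and held 4 such regions, all in its 3′UTR. En1 and En2, the engrailed factors that set up the midbrain-hindbrain border and the cerebellum, had 28.4 and 19.4 (chr1:120606904-120607505, plus strand) and 16.8 and 18.9 (chr5:28170157-28170543, plus strand), and each held 3 regions.

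Pax2, a factor of cerebellar interneuron precursors, had 7.78 and 45.7 on pileups of 13 and 119 fragments, and its 2 libraries were the farthest apart of the factors named here. Tfap2a, a factor of cerebellar GABAergic neurons, had 14.9999 and 23.1, and Irx3, an Iroquois homeobox gene, had 9.91 and 7.26 in its coding sequence. Pcp4, a calmodulin-binding protein of Purkinje cells, had 1.64 and 1.43 in its 5′UTR, close to background.

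Of 30 cerebellum transcription factors, 5 were cerebellum-only (En1, En2, Pax2, Irx3 and Tfap2a), none was cerebrum-only and 13 had peaks in all 6 libraries, against 2.01% cerebellum-only and 6.89% cerebrum-only among all genes. Their summed peaks were 43 and 58 in cerebellum and 31 to 40 in cerebrum. Without the cerebellum F1i library 10 were cerebellum-only, while cerebellum-only genes as a whole rose from 219 to 410. Of 18 genes of cerebellar neurons, Pcp4 alone was cerebellum-only, a call lost at a stricter q, at equal list lengths and after depth scaling, 7 had peaks in all 6 libraries and 8 had none, and the summed peaks were 18 and 24 in cerebellum and 24 to 34 in cerebrum.

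Markers of neighbouring tissue were counted too. Of 12 midbrain and diencephalon genes, 4 were cerebellum-only (Foxa2, Lmx1b, Pax7 and Irx1), against 2.01% of all genes, and 6 had peaks in all 6 libraries. None was cerebrum-only, though Tcf7l2 held a cerebrum-only region. Summed peaks were 23 in each cerebellum library and 10 to 12 in each cerebrum library. Foxa2, a factor of the floor plate and of midbrain dopamine neurons, had 28.5 and 22.1. Lmx1b, a factor of the same neurons and of serotonergic cells, had 7.78 and 4.68. Th, the rate-limiting enzyme of dopamine synthesis, had no peak in any library. Of 15 Hox genes, which mark the hindbrain behind the cerebellum, 5 had a peak in the cerebellum F1r library and none in the other 5 libraries. Their part in the cerebellum-only set was not tested.

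Markers of other cell types were counted in the same way. Peaks of 7 erythroid markers were absent from all 6 libraries. Peaks of 8 choroid plexus markers summed to 4 to 7 in cerebrum and 2 to 4 in cerebellum, with the defining marker Ttr at 0 in every library. Sums in cerebrum and cerebellum were 3 to 7 and 4 to 6 for 7 microglia markers, 6 to 8 and 4 to 5 for 6 endothelial markers, and 17 to 21 and 18 to 20 for 7 oligodendrocyte markers. Of 6 meningeal and 8 astroglia and radial glia markers, 2 and 4 had peaks in all 6 libraries, and none of the markers in these lists was tissue-exclusive by gene.

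Several cerebellum-only regions with large pileups lay in genes that had no peak in cerebrum. Gap43, a growth-cone protein, had a 5′UTR region (chr16:42340421-42340605, minus strand) with folds of 5.55 and 5.20 on pileups of 1248 and 1164. Ybx1, a cold-shock RNA-binding protein, had 5.62 and 5.94 in its 5′UTR, and Atp5g3, a subunit of ATP synthase, had 6.39 and 7.18. Ptms and Ptma, the acidic nuclear proteins parathymosin and prothymosin alpha, had 5.74 and 4.90 in an intron and 5.57 and 4.41 in coding sequence. Hsp90ab1, a chaperone, had 2.54 and 2.35. None of Gap43, Ptms, Ybx1 and Ptma held a GGAC within 25 nt of the summit, and none of the 6 genes had a peak in any cerebrum library.

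The 5′UTR held 96 cerebellum-only regions (14.2%), against 3.98% of cerebrum-only and 3.42% of shared regions. Their summits lay a median of 72 nt from the annotated transcript start, with 58 of 96 (60.4%) within 100 nt. Cerebrum-only 5′UTR summits lay 226.5 nt away and shared ones 375.5 nt, with 24.0% and 18.5% within 100 nt. The median fold of the cerebellum-only 5′UTR regions was 4.46, below the 7.35 of cerebrum-only ones, and 35.4% of them held GGAC. Cerebellum-only coding regions were close to this, with a median fold of 4.61 and GGAC in 36.2%. GGAC was held by 41.2% of cerebellum-only regions in introns, 52.2% in the 3′UTR or at the stop codon, 55.6% in non-coding exons and 67.7% outside genes. The methylated base next to the cap, m6Am, is also bound by m6A antibodies and cannot be told apart from m6A in these lists.

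Outside genes lay 538 cerebrum-only (13.9%) and 93 cerebellum-only regions (13.8%), against 13.1% of all regions and 5.42% of shared ones. Of the exclusive ones, 46.8% and 45.2% were within 5 kb downstream of a gene on the same strand, against 52.7% of shared ones. Antisense to a gene lay 14.1% and 20.4%, against 14.9% of shared ones. The strongest in cerebellum (chr7:116824373-116824541, minus strand) had folds of 21.2 and 13.5, and its 25 nt at the summit had 8 copies.

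Of 10888 genes, 2339 held a cerebrum-only region, 533 a cerebellum-only region and 73 both. Mapt, which encodes the microtubule protein tau, had a cerebrum-only region in its 3′UTR (chr11:104329086-104329238, plus strand) with folds of 4.32, 4.43, 4.82 and 4.98, and a cerebellum-only region in its 5′UTR (chr11:104231479-104231640, plus strand) with 2.93 and 2.89. Map1b, another microtubule protein, had a cerebrum-only coding region with 3.62, 3.38, 3.57 and 4.67 and a cerebellum-only coding region with 3.62 and 3.401. Malat1 held a cerebellum-only region (chr19:5802591-5802671, minus strand) with 4.53 and 6.03 beside its cerebrum-only one. The folds of Mapt and Map1b were below the medians of 8.10 and 5.76 of their classes, and the cerebrum-only region of Malat1 was not.

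Ordinary members, those nearest to the median strength, were weak. The cerebrum-only regions in Ccser1, an intron, and Gm26644, a long non-coding RNA, had folds of 7.68, 11.1, 8.78 and 9.51 and of 7.26, 7.46, 12.9 and 10.5, on pileups of 13 to 30 fragments. The cerebellum-only regions in Tirap, an adaptor of Toll-like receptors, and P2ry12, a receptor of microglia, had 7.22 and 8.99 and 7.85 and 6.90, on 12 to 20 fragments. At P7 the P2ry12 region was called in all 8 libraries and the Ccser1 region in none.

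The sexes of the P0 libraries were checked on Xist, which only cells with an inactive X express at length. Its one cerebrum-only region (chrX:103481906-103482994, minus strand) had folds of 14.004 and 14.9 in the cerebrum males and 196 and 193 in the females, and no Xist peak was called in the 2 cerebellum libraries, both male. Xist thus counts as cerebrum-only by the rule although its level goes with sex. Peaks on the Y chromosome did not follow the labels as closely, with 14 and 17 in the cerebrum males, 11 and 12 in the cerebrum females and 2 and 0 in the cerebellum males. At P7 the cerebrum library labelled male F1r had 7 Xist peaks with a top fold of 253, while the one labelled female F1r had 3 with a top fold of 23.2, which goes against both labels. Their Y-chromosome peaks, 10 in the first and 1 in the second, went with the labels, so the sex of these libraries is not settled. P7 libraries were used by tissue alone. Values without these 2 libraries are given for the mean shares of P0 regions found in P7 cerebrum and for the P7 differences between lists. The other P7 counts and shares below include them.

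The 8 P7 libraries, 4 of each tissue, were not used to choose the regions. In the P7 cerebrum libraries 54.9% ± 3.72 (SD, n = 4) of the cerebrum-only regions had a peak, from 51.3% to 58.3%, and in the P7 cerebellum libraries 8.95% ± 2.43 (n = 4), from 6.61% to 11.5%. Of the cerebellum-only regions, 66.2% ± 6.15 had a peak in P7 cerebellum (57.9% to 72.6%) and 8.94% ± 1.39 in P7 cerebrum (6.97% to 10.2%). The tissues did not overlap in either set. Without the P7 cerebrum F1r libraries the means in P7 cerebrum were 51.7% and 8.09%. Shared regions had peaks in 95.6% and 90.0%, and all regions in 55.1% of P7 cerebrum and 45.9% of P7 cerebellum on average. Batch goes with tissue at P7 too.

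**Figure D4:**
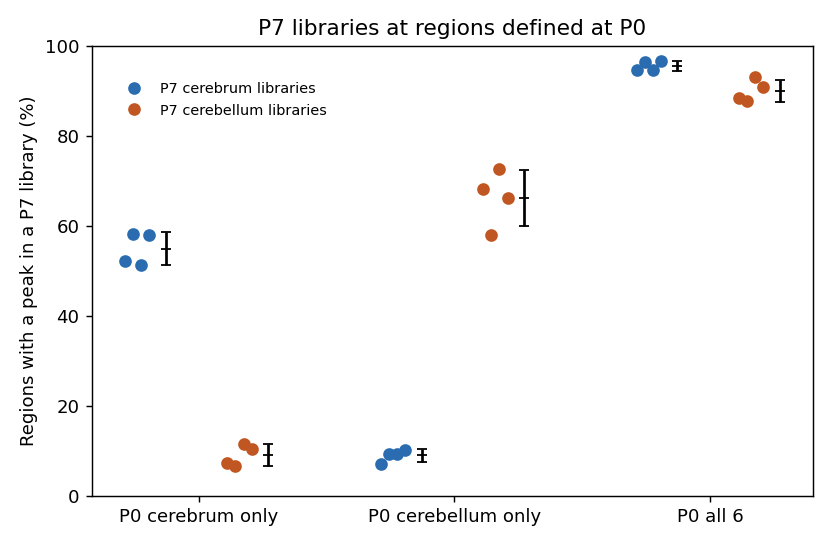
Share of P0 cerebrum-only, cerebellum-only and all-6 regions (%) with a peak in each P7 library, blue for cerebrum and orange for cerebellum, with bars for mean ± SD (n = 4). Exclusive regions are found in 51.3% to 72.6% of cases in the tissue where they were called at P0 and in 6.61% to 11.5% in the other.

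Counted region by region, 1023 of the 3873 cerebrum-only regions (26.4%) were again in all 4 P7 cerebrum and no P7 cerebellum library, against 5.58% of all P0 regions, and 2 had the opposite pattern. Another 1006 had no peak in any P7 library and 48 had one in all 8. Of the cerebellum-only regions, 242 of 674 (35.9%) kept their pattern at P7, against 1.69% of all P0 regions, 1 had the opposite pattern, 78 had no peak and 18 were in all 8. By gene, 210 of 750 cerebrum-only genes (28.0%, against 3.24% of all genes) and 87 of 219 cerebellum-only genes (39.7%, against 1.78%) had the same pattern at P7.

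Stronger regions were called again more often. Cerebrum-only regions below the 20th percentile had a peak in 30.6% of P7 cerebrum libraries on average and those above the 80th in 98.2%. For cerebellum-only regions in P7 cerebellum the values were 46.7% and 94.2%. In the other tissue they were 8.29% and 16.1% for cerebrum-only and 9.85% and 4.17% for cerebellum-only regions. GGAC lay near 49.2% of cerebellum-only summits below the 20th percentile and 26.7% above the 80th, and near 35.8% and 42.9% of cerebrum-only summits.

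**Figure D5:**
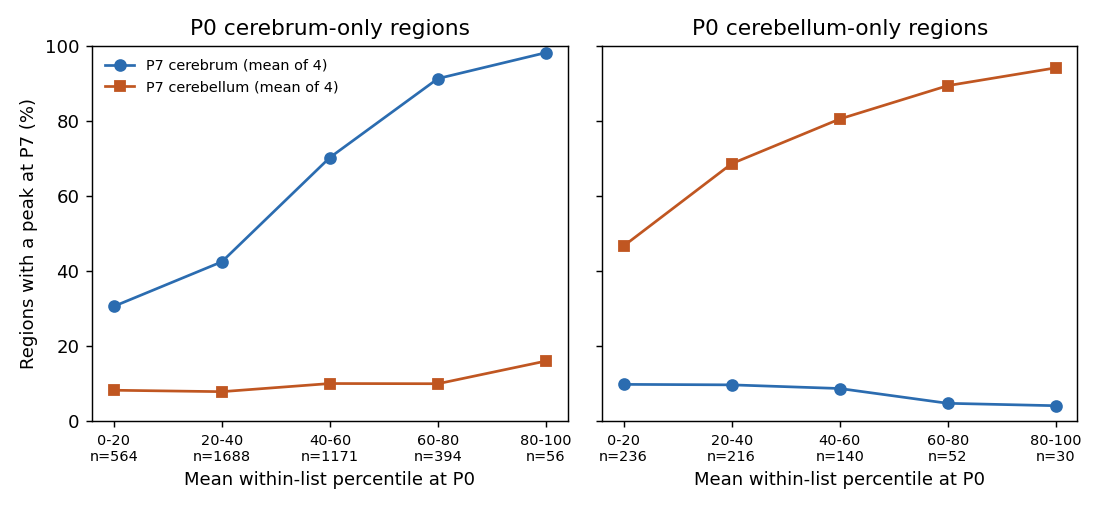
Share of P0 cerebrum-only (left) and cerebellum-only (right) regions (%) with a peak at P7, averaged over the 4 libraries of each tissue, by the mean within-list percentile at P0 in bins of 20, with the number of regions under each bin. The own-tissue share climbs from 30.6% to 98.2% in cerebrum and from 46.7% to 94.2% in cerebellum.

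Gene parts differed in the same check. Cerebrum-only intronic regions had a peak in 38.6% of P7 cerebrum libraries and 2.07% of P7 cerebellum libraries, while those in the 3′UTR or at the stop codon had one in 66.5% and 15.4%. Cerebellum-only 5′UTR regions had a peak in 71.4% of P7 cerebellum and 2.60% of P7 cerebrum libraries. Among named genes, Emx1, Dlx6, Rbfox1, Nlgn1 and Rtn4 were in all 4 P7 cerebrum and no P7 cerebellum library. Tbr1, Sp8, Tiam2 and 9130024F11Rik were in all 4 P7 cerebrum and 1 P7 cerebellum library, Epha3 in 4 and 2, Ccnd2 in 4 and 3, and Dlx5 in 2 and 0. En2, Tfap2a, Irx3, Pax2, Gap43 and Ybx1 were in all 4 P7 cerebellum and no P7 cerebrum library. En1 was called in 4 P7 cerebellum and 2 P7 cerebrum libraries, Pax7 in 2 P7 cerebellum and 1 P7 cerebrum library, Foxa2 in 1 P7 cerebellum library and Lmx1b in none.

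At P7 the lists differed between tissues by 1842 peaks, by 2.70 percentage points for introns, by -2.89 for the 3′UTR and stop codon, by -0.68 for the 5′UTR and by -7.61 for GGAC (cerebrum minus cerebellum, exact permutation p = 0.0286 for each, the smallest that 4 against 4 can give, and 0.0457 after Benjamini-Hochberg adjustment over 8 measures). Without the P7 cerebrum F1r libraries these were 1364, 2.32, -2.34, -0.78 and -7.47, and no p could go below 0.0667. Introns, the 5′UTR and GGAC were at that value (exact permutation p = 0.0667 for each). Peaks and the 3′UTR and stop codon were above it (exact permutation p = 0.133 for each). Coding sequence differed by -0.24 points (p = 0.857, exact permutation test). Whether a tissue difference itself changed between P0 and P7 was tested over 1050 arrangements of the tissue labels within each age, and none of the 8 measures passed after adjustment. Coding sequence alone was below 0.05 before it (P0 minus P7 difference -3.69 points, permutation p = 0.041, adjusted p = 0.32).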

How the data were processed

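m6A-seq IP libraries were used as deposited peak lists, 1 per library, grouped by their labels, with 0 columns unmapped. The inputs were not analysed here. By the study's methods, barcoded samples were pooled for IP, and reads were aligned to an N-masked mm10 genome, kept when properly paired, deduplicated and split by strand, with MACS2 run on each library alone. The submitters' processing notes name fastp 0.21.0, HISAT2 2.1.0, MACS2 2.1.2 and featureCounts 1.6.0. The control of each call is not given in the sources used here. The labels name polyadenylated RNA, and the methods also name ribo-depleted RNA without assigning samples.

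The ratio deposited by the authors is the fold enrichment at the summit. The significance values deposited by the authors are −log10 p and −log10 q, and the lowest −log10 q of a P0 list was 1.30 to 1.38. The deposited summit offset gave each peak's position, and the score was not used. Whole-number pileups were recovered from fold and p for 99.9985% of P0 peaks. With no read totals, no counting interval can be given, and a weak peak may be missed in a shallow library.

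Peaks overlapping by at least 1 nt on a strand were merged. Summits were assigned on GENCODE M21, in this order, to the 3′UTR or the 200 nt around a stop codon, 5′UTR, coding sequence, non-coding exon (exons of transcripts with no coding part included), intron or outside genes. Group differences were tested by exact permutation over libraries, two-sided except for the Jaccard index, which was one-sided. Exclusive regions were described without a test. Python 3.11.15, pandas 2.3.3, numpy 2.4.6, scipy 1.17.1, pysam 0.24.0, bedtools 2.31.1 and matplotlib 3.10.9 were used, and the scripts were tested on simulated data.

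Genes were named from the 10 exclusive regions of each tissue with the highest mean within-list percentile of −log10 q (1 per gene), the 3 highest in each gene part, members of the gene lists, the 5 genes with the most regions, the 5 highest opposite pairs and the 2 regions nearest the median. Some genes that meet this rule are not reported here. Xist was added after its values were seen. The members and lists were chosen with earlier results of these data known. Alternatives were the overlap rule, strand, a stricter q, equal list sizes, depth scaling, exonic summits, any DRACH motif, a gap of 200 nt, merging all 14 lists, males only, a block by cross and leaving out each library. Leaving out regions with several genome copies, and the P7 cerebrum F1r libraries, were chosen after seeing the data.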

Additional observations from a re-analysis of the deposited data

Results flagged for a closer look

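Among 68 groups of 4 libraries, 3 named regions had 1 cerebrum library far from the other 3, where chance gives about 1 in 20 groups. The Dlx1as region had a fold of 57.9 in F1r males, against 81.8 to 86.7 in the others. The region outside genes at chr7:104427798-104428077 (plus strand) had a fold of 344 in F1i males, against 4.996 to 5.84 in the others. The small nuclear RNA gene Gm25405 had a fold of 175 in F1i males, against 14.96 to 30.6. The 25 nt at these last 2 summits occur 10 and 129 times in the genome, and the part of this in the folds was not tested.

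The tissue difference in the share of summits in coding sequence was -3.93 percentage points at P0 and -0.24 at P7, so that the P0 minus P7 difference was -3.69 (permutation test over 1050 arrangements, p = 0.041, and 0.32 after Benjamini-Hochberg adjustment over 8 measures, so it did not pass). All 4 P0 cerebrum libraries were below both P0 cerebellum libraries, but with lists of equal length the P0 difference was -0.29 points (exact permutation p = 0.733).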

How the results depend on the processing

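Over 17 main results, 208 alternative values were computed, of which 188 kept their direction and, where a count or share, their approximate size, 17 moved and 3 reversed; over 69 named regions and lists, 1000 of 1015 stayed, 10 were lost, 5 moved and none reversed. The cause of each change below was not tested, beyond what each alternative removes. With equal list sizes the cerebrum-only and cerebellum-only regions were 1579 and 1346, the genes 353 and 501, the P7 cerebrum and P7 cerebellum shares of cerebrum-only regions 79.2% and 11.5%, the P7 cerebrum share of cerebellum-only regions 26.8%, and the differences for non-coding exons and outside genes -0.25 (p = 0.133, exact permutation) and -0.67 (p = 0.0667, exact permutation). The equal lists also cut the differences for introns to 3.93 points, for the 3′UTR and stop codon to -2.42 (p = 0.133, exact permutation) and for coding sequence to -0.29 (p = 0.733, exact permutation), with no change of sign. With exonic summits only, cerebrum-only regions were 2293, with P7 shares of 64.5% and 12.8%. Counting a peak within 200 nt gave 10.8% of cerebellum-only regions in P7 cerebrum, and males only gave 45.4% and 14.9% in P7 cerebrum. Any DRACH motif gave a difference of 0.42 points. Leaving out each P0 library in turn gave 4137 to 5130 cerebrum-only and 714 to 1438 cerebellum-only regions, and 789 to 1131 and 232 to 410 genes. Requiring 50% cover, ignoring strand, a −log10 q of 3 or more, depth scaling and merging 14 lists left cerebrum-only regions at 4426, 3834, 3887, 3808 and 3831. A replicate block by cross, in males, gave a peak difference of 6475, 8.60 points for introns and -8.59 for GGAC, with p = 0.5, the smallest an exact test on 2 pairs allows. The Dlx1as region was lost when strand was ignored, Gm23849 and Pax2 at 50% cover, Pcp4 at the stricter q, equal lists and depth scaling, Ccser1, Gm26644 and Lmx1b at equal lists, and Tma7 with exonic summits. Absolute depth is unknown, so a missing peak is not shown to be absent methylation.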

Other observations

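Introns also held some of the stronger cerebellum-only regions. Ip6k2, an inositol phosphate kinase, had folds of 9.79 and 12.002 in F1i and F1r males, Tma7, a factor of the translation machinery, had 10.2 and 4.83, and Anp32b, an acidic nuclear phosphoprotein, had 8.54 and 6.49. Anp32b held 3 cerebellum-only regions, 2 of them in coding sequence, and its gene had peaks in all 4 cerebrum libraries. Tma7 had none in cerebrum. All 3 regions were called in all 4 P7 cerebellum libraries and in no P7 cerebrum library.

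An imprinted and a metabolic transcript also differed within a gene with peaks in both tissues elsewhere. Meg3, a maternally expressed non-coding RNA, had a cerebellum-only region (chr12:109561471-109561575, plus strand) with folds of 2.26 and 2.60, while other parts of it carried peaks in all 4 cerebrum libraries. Scd2, a fatty acid desaturase of the brain, had a cerebrum-only 3′UTR region with folds of 11.7, 11.6, 10.6 and 11.9 in F1i males, F1r males, F1i females and F1r females, with peaks elsewhere in both cerebellum libraries.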
